A study of Mus musculus with 6 samples.

Results

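H3K27me3 was mapped by ChIPSeq in neural stem cells (NSC), and the regions described here were 235 H3K27me3 peaks found at the promoters of noncoding genes in control NSC, out of 12982 peaks in that library. The peaks were chosen by measured values: each had been called in control NSC, was shorter than 4000 bp, lay on an autosome (chromosomes 1 to 19), overlapped the window within 1 kb of a transcription start site (TSS) of a GENCODE M21 gene of any biotype other than protein_coding, and lay more than 5 kb from every protein-coding TSS. They covered 181251 bp and belonged to 177 noncoding genes. Of 9015 autosomal peaks under the length limit, 519 overlapped a noncoding promoter window, and 284 of these were left out because a coding TSS lay within 5 kb.

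The control NSC carried the wild type genotype, and the cells called NSC Bmi1Over carried STOPFloxBmi1;NestinCre, a transgene from which Cre, driven by the Nestin promoter in neural progenitors, removes a stop cassette in front of Bmi1. Both kinds of culture came from the brain of mouse embryos at E16.5, and the labels name no treatment. ChIPSeq was available as 1 library per condition, so the peak comparisons have no replicates and no test, and their intervals cover counting error only. RNASeq was available as 2 cultures per condition, and p-values then measure only the spread between these cultures. The mGIC, glioma cells of the same study, were not analysed here.

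Counted reads ranged from 18112100 to 61353076 per RNASeq library. Bmi1, the targeted gene, was at 133.3 and 123.5 CPM (reads scaled to the normalised library size) in NSC and at 118.6 and 112.6 CPM in those labelled NSC Bmi1Over, a log2 fold change of -0.15 with an adjusted p of 0.463 by edgeR. These values go against the label, and the cultures are therefore called the libraries labelled NSC Bmi1Over. Reads of the transgene are included only as far as they map to exons of the annotated Bmi1 gene, which was not tested. Of 12 markers of neural stem cells, 12 reached a mean of 1 CPM, and their summed level was 6720 to 7405 CPM in NSC, against 7282 to 7504 CPM in those labelled NSC Bmi1Over. Markers of the oligodendrocyte lineage summed to 2481 to 2609 and 2486 to 2565 CPM (7 of 7 markers at 1 CPM), those of neurons to 946 to 971 and 926 to 1012 CPM (6 of 7) and those of astrocytes to 177 to 219 and 149 to 170 CPM (4 of 5, with Aldh1l1 called at a log2 fold change of -0.86). Single genes made up much of the first 2 sums, with means of 1272 CPM for Olig1 and 876 CPM for Map2. Microglial, endothelial and mesenchymal lists each summed to between 1.30 and 3.42 CPM in every library, and of their defining markers Cldn5 was at 0. The haemoglobin genes Hba-a1 and Hbb-bs were at 0 in every library.

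H3K27me3 is placed by the Polycomb repressive complex PRC2, and Bmi1 belongs to PRC1, the complex that binds this mark. The mark is best known from the promoters of developmental regulators that a cell keeps silent, where it spreads over CG-rich DNA, and many such regulators have noncoding neighbours: long noncoding RNAs read from the opposite strand, and microRNA genes that act at later steps of differentiation. Noncoding genes also include pseudogenes, small nuclear and ribosomal RNA genes, and records named TEC that await experimental evidence.

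The sequence at the centre of a peak shows part of the DNA that carried the mark. Of the 3 peaks of highest fold enrichment that overlapped a peak of NSC Bmi1Over, 2 are given by 300 bases about their centre, on the plus strand of GRCm38 and with each CG dinucleotide in capitals. The window at Gm8357, a processed pseudogene, was chr1:48881422-48881721 and held 1 CG. The window at the pseudogenes Gm18604 and Gm29402 was chr17:36230263-36230562 and held 0.
Gm8357: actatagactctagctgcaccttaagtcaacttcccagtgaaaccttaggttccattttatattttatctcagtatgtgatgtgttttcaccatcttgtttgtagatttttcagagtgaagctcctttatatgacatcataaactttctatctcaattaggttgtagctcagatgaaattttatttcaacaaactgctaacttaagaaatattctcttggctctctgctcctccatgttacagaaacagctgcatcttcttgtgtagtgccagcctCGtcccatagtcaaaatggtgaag
Gm18604 and Gm29402: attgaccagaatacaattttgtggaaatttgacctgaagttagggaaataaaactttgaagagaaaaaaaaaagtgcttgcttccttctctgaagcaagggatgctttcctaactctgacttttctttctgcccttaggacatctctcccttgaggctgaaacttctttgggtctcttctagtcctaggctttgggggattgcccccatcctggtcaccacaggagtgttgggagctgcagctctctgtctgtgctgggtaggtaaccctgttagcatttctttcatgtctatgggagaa
The 3 peaks of highest fold enrichment with no NSC Bmi1Over peak are given in the same way. Their windows held more CG, but over all 235 peaks the median ratio of observed to expected CG was 0.238 with and 0.239 without overlap. The window at 9530036O11Rik, an antisense RNA whose peak overlaps an exon of Shh (the gene of the signal Sonic hedgehog), was chr5:28457974-28458273 and held 46 CG. The window at 2410017I17Rik and Gm10499 was chr17:36145102-36145401 with 24 CG, and that at the processed pseudogene Gm6623 was chr17:36179356-36179655 with 10 CG.
9530036O11Rik: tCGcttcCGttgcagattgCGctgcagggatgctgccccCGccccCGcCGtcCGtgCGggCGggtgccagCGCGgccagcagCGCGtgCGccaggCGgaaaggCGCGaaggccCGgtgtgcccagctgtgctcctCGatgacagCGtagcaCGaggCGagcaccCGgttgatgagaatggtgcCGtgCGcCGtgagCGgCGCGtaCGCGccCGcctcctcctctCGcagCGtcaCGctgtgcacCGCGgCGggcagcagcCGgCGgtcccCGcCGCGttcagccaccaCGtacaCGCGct
2410017I17Rik and Gm10499: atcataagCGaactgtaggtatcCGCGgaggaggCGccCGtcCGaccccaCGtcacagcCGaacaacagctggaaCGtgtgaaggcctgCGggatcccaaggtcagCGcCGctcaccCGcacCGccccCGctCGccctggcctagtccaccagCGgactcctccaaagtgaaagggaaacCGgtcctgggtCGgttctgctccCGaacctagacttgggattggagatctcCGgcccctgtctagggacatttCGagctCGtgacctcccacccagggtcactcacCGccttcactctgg
Gm6623: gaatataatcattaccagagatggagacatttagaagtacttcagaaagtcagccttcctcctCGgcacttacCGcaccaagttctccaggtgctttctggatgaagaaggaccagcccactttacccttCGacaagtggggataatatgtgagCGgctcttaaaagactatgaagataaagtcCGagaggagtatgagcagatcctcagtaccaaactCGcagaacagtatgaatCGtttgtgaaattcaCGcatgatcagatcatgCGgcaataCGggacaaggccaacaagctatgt

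MicroRNAs pair with messenger RNAs mainly through their seed (bases 2 to 8), which is in capitals in the mature sequences below. RefSeq (GRCm38.p6) held mature sequences for 10 of the 15 microRNA genes at the peaks, 16 in all, and no seed was shared among them. At 5 of these genes a mature sequence reached into a peak, and 4 of them are shown. The 5p arms of the Mir375 hairpin, from a gene known in pancreas (chr1:74900696-74900717, minus strand), and of the Mir1a-1 hairpin, from one known in muscle (chr2:180389057-180389079, plus strand) lay within their peaks, while miR-129-5p (chr2:94241419-94241439, minus strand) and miR-129b-3p (chr2:94241420-94241442, plus strand) overlapped the edge of one.
mmu-miR-375-5p: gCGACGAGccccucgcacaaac
mmu-miR-1a-1-5p: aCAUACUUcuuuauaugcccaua
mmu-miR-129-5p: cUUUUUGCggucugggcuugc
mmu-miR-129b-3p: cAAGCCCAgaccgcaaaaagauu
At the remaining genes the mark lay beside the mature sequence. The distance to the nearest peak was 11 bp for miR-203-3p (chr12:112130927-112130948, plus strand), a microRNA of the epidermis, and 487 bp for miR-137-3p (chr3:118433901-118433923, plus strand), a microRNA of neurons.
mmu-miR-203-3p: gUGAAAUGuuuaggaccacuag
mmu-miR-137-3p: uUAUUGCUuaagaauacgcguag
The remaining microRNA genes at the peaks were Mir6236, Mir7230, Mir3063, Mir6405, Mir124a-1, Mir3078, Gm22646, Gm24084 and Gm24155.

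Most of the peaks were short and weak. Their length had a median of 443 bp (quartiles 264.5 and 895.5, range 200 to 3762), and 131 were under 500 bp while 52 were 1000 bp or longer. Fold enrichment, the ratio of ChIP reads to the background that MACS2 estimates, had a median of 4.29 (range 3.52 to 8.15), and 35 peaks reached 5. The −log10 of the q-value had a median of 3.19 and ranged from 1.77 to 12.2. As these values come from the peak call that chose the regions, they are a description and were not tested. Of the 235 peaks, 64 covered a noncoding TSS and 171 lay beside one. The nearest coding TSS was at a median of 22839 bp (range 5057 to 1988545), 33 peaks lay inside a coding gene and 10 of these touched a coding exon.

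The limits of the rule cut through a continuous range. Just under 4000 bp lay the peaks at Gm38604 near Nr2f1 (3762 bp), Gm29683 near Nr2f2 (3718 bp) and Gm20392 (3614 bp), and just over it those at Mir124a-3 (4422 bp), Gm25995 (4679 bp) and Gm23630 (5100 bp). The nearest coding TSS was 5057 bp from the peak at Gm4246 and 5087 bp from one at Nphs1os, both inside the limit, and 4981 bp from that at Gm11290 and 4948 bp from that at Gm15413, both outside. The noncoding TSS was at 989 bp for 2810405F15Rik and 988 bp for Gm6134, inside, and at 1002 bp for Gm11732 and 1008 bp for Gm27033, outside.

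By fold enrichment, the 10 strongest peaks were at Gm8357 (8.15), Mir6236 (7.14), Gm18604 and Gm29402 (7.12), Gm24830 (6.93), 9530036O11Rik (6.51), Gm25675 (6.47), 2410017I17Rik and Gm10499 (6.16), Gm6623 (6.15), Gm16505 and Gm48530 (6.08) and Gm20392 (6.07). Pseudogenes and genes of structural RNAs made up most of these, as Gm24830 is annotated as an snRNA and Gm25675 as an rRNA. Short peaks of high fold stood at Gm8357 (351 bp), Mir6236 (344 bp) and Gm25675 (355 bp), and soft-masked (repeat) bases made up 19.4%, 36.0% and 55.2% of them. Over all 235 peaks the median share of masked bases was 13.7%, and 17 peaks were masked over more than 50% of their length. The authors discarded reads that map to several places, so enrichment at multi-copy genes and near-identical pseudogenes is uncertain. The 5 widest peaks, after those at Gm38604, Gm29683 and Gm20392, were at C230057M02Rik (3498 bp) and Gm17575 (3365 bp).

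**Figure D1:**
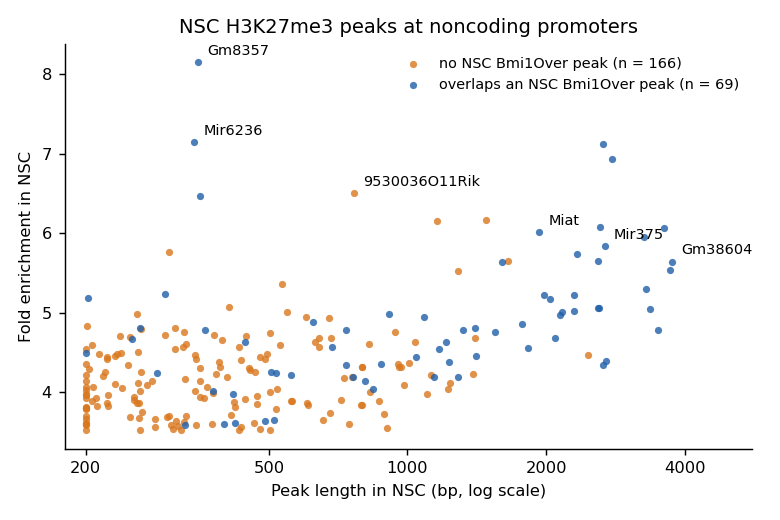
Length (bp, log axis) and fold enrichment in NSC of the 235 peaks, with 1 point per peak, in blue for the 69 that overlapped a peak of NSC Bmi1Over and in orange for the 166 that did not. Blue points dominate above 1000 bp, while the short peaks at Gm8357 and Mir6236 have the highest fold enrichments.

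Long noncoding RNAs were the most frequent class among the 177 genes. They numbered 78 (44.1%), against 31.0% of the 30422 noncoding autosomal genes of the annotation, and 63 of them were lincRNAs (intergenic). Pseudogenes numbered 46 (26.0%, against 38.1%), microRNAs 15 (8.47%, against 6.75%), other small or structural RNAs 23 (13.0%, against 13.6%) and TEC records 15 (8.47%, against 10.5%). The shares of the annotation were taken without the limit of 5 kb from coding TSS, so the bases compared are unlike. Genes often shared a peak or had several: 62 genes had more than 1 peak, with at most 5, and 20 peaks served more than 1 gene. When peaks within 10 kb were joined, they formed 150 loci, of which 97 held 1 peak and 4 held 5 or more. By chromosome, 29 peaks were on chromosome 2, 27 on chromosome 9, 26 on chromosome 17 and 0 on chromosome 16.

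The stretch with the most peaks lay in the major histocompatibility complex on chromosome 17, where many of the annotated genes encode H2 antigen-presenting proteins. There 19 peaks at 15 genes covered 22440 bp between chr17:36083882-36237891, with a median fold enrichment of 4.71 (range 3.60 to 7.12). One run of 8 peaks (chr17:36195344-36237891) ran over Gm8835, Gm20392, Gm10074, Gm20545, Gm18604, Gm29402, Gm20391 and Gm4246, and another of 6 (chr17:36138231-36159383) over 2410017I17Rik, Gm10499, Gm6659 and Gm9574. Of the 19 peaks, 6 overlapped a peak of NSC Bmi1Over. H2-Bl, a pseudogene there, had peaks of fold 4.40 and 3.60, of which the stronger covered its start. H2-K2, further along the same complex, had 2 peaks, the stronger of 200 bp and fold 4.54. Reads shared by similar H2 genes may have been dropped, and how similar these genes are was not tested.

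A further cluster lay on chromosome 3, around Rnu1b1 and Rnu1b2, genes of the U1 small nuclear RNA of the spliceosome. There 7 peaks covered 13713 bp between chr3:96325434-96423585 with a median fold of 5.05, and 5 of them overlapped a peak of NSC Bmi1Over. They stood at Gm24830, Rnu1b1 (fold 5.02, 2296 bp), Rnu1b2 (4.30, 354 bp), Gm17575, Gm24136 and the lincRNA Platr30 (5.17, 2042 bp). The peak at Rnu1b2 was masked over 88.7% of its length. Among 5S ribosomal RNA genes, n-R5s46 had a peak of 202 bp and fold 5.19, and n-R5s136 a peak of 200 bp and fold 4.49 that was masked over 100% of its length.

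Several peaks marked microRNA genes known from neurons and other differentiated cells. At the neuronal Mir124a-1 and its host gene Mir124a-1hg, 5 peaks of 212 to 829 bp spread over 4319 bp (chr14:64586142-64590460), with fold enrichments between 3.56 and 4.17. At Mir129-2, Mir129b and an internal start of the long transcript Mir670hg, 4 peaks spread over 3911 bp (chr2:94239770-94243680), and 1 of them had the highest CG ratio of all 235 peaks (1.14). Mir137 had 2 peaks, of 325 and 345 bp, with folds of 4.57 and 4.01. None of the peaks at Mir124a-1hg, at the Mir129-2 locus or within 1 kb of Mir137 overlapped a peak of NSC Bmi1Over, while a peak of 559 bp in the same locus as Mir137, at Gm9916 and Gm24155, was covered over 417 bp. Mir203 had 1 peak of 521 bp and fold 4.04, also without overlap. Outside the nervous system, Mir375 had a peak of 2682 bp and fold 5.84, of which 492 bp were covered by peaks of NSC Bmi1Over. Mir1a-1 had peaks of 418 bp (396 bp covered) and 479 bp (none covered). Mir6405 had a peak of 355 bp inside Pax2, and Mir3063 one of 265 bp inside Igf2bp1.

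Long noncoding RNAs of developmental loci were found among the peaks in small number. Miat, a nuclear RNA expressed in neural cells, had a peak of 1932 bp and fold 6.01 over its start (chr5:112227222-112229153). Rmst, an RNA linked to neurogenesis, had 2 peaks beside its start, of 366 and 355 bp and of fold 4.06 and 3.93. Wt1os, antisense to the kidney regulator Wt1, had a peak of 431 bp and fold 3.52, and a domain of 26905 bp also reached the window within 1 kb of a start. Hand2os1, at the heart regulator Hand2, had 2 peaks with folds of 3.70 and 3.59, and Nphs1os, at the podocyte gene Nphs1, had 2, the stronger of 1088 bp and fold 4.94. Of 30 such long noncoding RNAs listed for this work, 3 met the rule (Miat, Rmst and Wt1os), 11 had a peak of 4000 bp or more and none that met the rule, 2 (Emx2os and Otx2os1) had a short peak too near a coding TSS, 11 had no NSC peak within 1 kb and 3 were not in the annotation. Of 41 microRNA genes and hosts, 5 met it (Mir124a-1, Mir124a-1hg, Mir129-2, Mir137 and Mir203), 9 had a peak of 4000 bp or more and none that met the rule, 25 had none and 2 were not in the annotation. Of 9 imprinted noncoding genes, 8 had no NSC peak and Nespas had one too near a coding TSS. Of 7 abundant noncoding RNAs such as Malat1, 6 had none and Snhg11 was coding in the annotation.

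The remaining genes with a name of their own had weak peaks for the most part. Olfr1372-ps1 and Olfr225, pseudogenes of odorant receptors, had peaks of 628 bp (fold 4.63) and 528 bp (4.59). C2cd6b had one of 259 bp (4.98), Dcdc5 one of 1045 bp (4.44), Rpl36-ps3 one of 1007 bp (4.37) and Fut4-ps1 one of 224 bp (3.96). Rpl36-ps3 shared its locus with 4930519A11Rik and Gm40271, where 7 peaks spread over 11404 bp (chr12:12900026-12911429) with Mycn, a proto-oncogene of neural progenitors, as the nearest coding gene.

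Coding neighbours of the peaks included developmental regulators with few or no reads. The nearest coding TSS belonged to 141 genes, and to a member of the listed families of developmental transcription factors and signals (such as Dlx, Pax, Lhx, Nkx and Wnt) for 29 peaks (12.3%). Among short autosomal peaks away from promoters this share was 11.9% (655 of 5484), and among those at coding promoters it was 7.39% (119 of 1611). The 16 genes concerned were Dlx6, En1, Evx1, Evx2, Gata5, Lhx3, Lhx6, Lmx1b, Nkx2-3, Nkx2-5, Pax2, Pax5, Tfap2b, Wnt6, Wnt7a and Zic4. Of these, 14 had a mean under 1 CPM over the 4 libraries. The exceptions were Wnt7a, a signal of cortical progenitors, at 57.8 and 66.7 CPM in NSC and 75.4 and 76.6 CPM in those labelled NSC Bmi1Over, and Zic4, a factor of the dorsal and cerebellar neural tube, at 7.38 and 7.63 against 5.71 and 6.79 CPM. Neither passed the test by edgeR (log2 fold change 0.29 with adjusted p 0.204 for Wnt7a, and -0.25 with adjusted p 0.449 for Zic4). Of the 16 genes only 4 had enough reads to test (these and En1 and Wnt6), and none was called. Of 84 coding neighbours with enough reads to test, 1 was called (Vgll2, a cofactor of muscle genes, log2 fold change 1.74, adjusted p 0.0407 by edgeR), beside 2.15% of all genes tested.

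In sequence, the peaks lay between those at coding promoters and those away from promoters. The ratio of observed to expected CG dinucleotides had a median of 0.239, against 0.488 at coding promoters and 0.181 away from promoters. A ratio of 0.6 or more, the level usual in CpG islands, was reached by 24 peaks (10.2%), against 35.0% of peaks at coding promoters (564 of 1611) and 2.61% of those away from promoters (143 of 5484). The same order held in each of 4 length bins, where the share among the noncoding promoter peaks ran from 6.25% to 13.5%. GC content had a median of 47.4%, against 55.6% and 45.0%. The 24 peaks included those at Mir129-2 and Mir129b (ratio 1.14), 9530036O11Rik (1.09 and 0.68), H2-Bl (0.85), Mir124a-1hg (0.65, 0.63 and 0.61), Mir670hg (0.62) and Miat (0.60). Peaks that covered a noncoding TSS reached the ratio of 0.6 in 14 of 64 cases (21.9%), and those beside one in 10 of 171 (5.85%), with medians of 0.355 and 0.205. The printed windows show this range, from 0 CG at Gm18604 and Gm29402 to 46 at 9530036O11Rik.

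Long domains, NSC peaks of at least 4000 bp, lay near part of these peaks. A domain lay within 10 kb of 54 peaks (23.0%, 95% Wilson interval 18.1 to 28.8), against 22.3% (21.2 to 23.5) of those away from promoters and 5.83% (4.79 to 7.09) of those at coding promoters. The share was 10.4% among peaks under 300 bp and 40.4% among those of 1000 bp or more. The nearest domain was 185 bp from the wide peak at Gm29683, 261 bp from that at Gm38604 and 278 bp from that at Gm24830, while the peak at Mir137 had none within 9194341 bp. The median distance was 386114 bp.

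**Figure D2:**
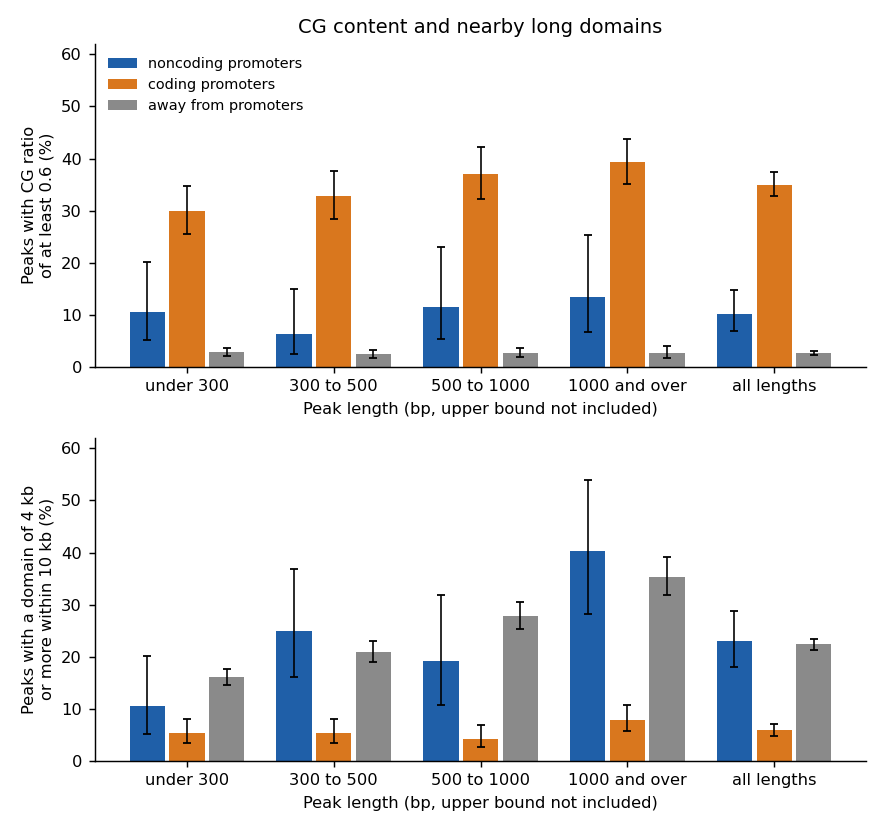
Share (%) of short autosomal NSC peaks with a ratio of observed to expected CG of at least 0.6 (top) and with an NSC domain of 4 kb or more within 10 kb (bottom), by peak length, for peaks at noncoding promoters (blue), at coding promoters (orange) and away from promoters (grey); error bars are 95% Wilson intervals. Blue bars stand below orange in the top panel (10.2% against 35.0% over all lengths) and near grey in the bottom panel (23.0% against 22.3%).

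Whether the mark at these promoters was also called in the library labelled NSC Bmi1Over was read from the overlap with the 6810 peaks of NSC Bmi1Over, counting 1 bp or more as overlap. Of the 235 peaks, 69 overlapped (29.4%, Wilson interval 23.9 to 35.5) and 166 did not. The share was 27.1% (24.9 to 29.3) at coding promoters and 21.6% (20.5 to 22.7) away from promoters. When 50% of a peak had to be covered, the shares were 9.36% (22 peaks, 6.26 to 13.8) at noncoding promoters, 6.77% (5.64 to 8.10) at coding promoters and 8.32% (7.61 to 9.07) away from promoters. In bases, 39753 bp of the 181251 bp were covered (21.9%). The share was higher in longer peaks, at 8.96% under 300 bp, 17.2% from 300 to under 500 bp, 25.0% from 500 to under 1000 bp and 75.0% from 1000 bp (39 of 52). In this longest bin it was 65.5% at coding promoters and 70.7% away from promoters, both inside the interval of the noncoding promoters (61.8 to 84.8). In the 3 shorter bins the share away from promoters (7.61%, 13.8% and 28.9%) lay inside the interval of the noncoding promoters as well, and the share at coding promoters (4.99%, 7.83% and 20.1%) did so except from 300 to under 500 bp, where the interval began at 9.88%. Overlapping peaks had a median length of 1214 bp and fold of 4.78, and the others 355 bp and 4.10. As NSC Bmi1Over had fewer peaks in all and 1 library, a missing peak cannot be told apart from a lower yield of that library.

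**Figure D3:**
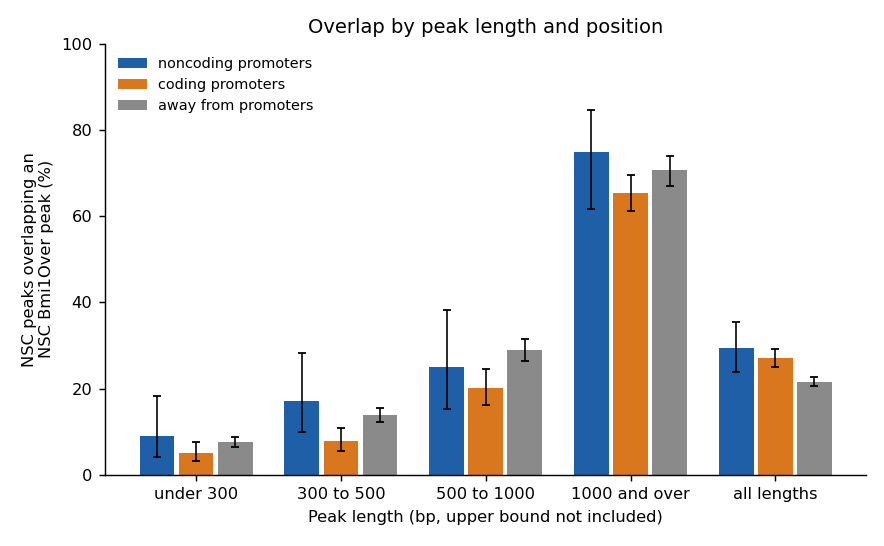
Share (%) of short autosomal NSC peaks that overlapped a peak of NSC Bmi1Over, by peak length and position, with 95% Wilson intervals as error bars. The share rises with length in each class, to 75.0%, 65.5% and 70.7% from 1000 bp, and the intervals of noncoding promoters (blue) overlap those of at least 1 other class in each bin.

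At the level of genes, 66 of the 177 had at least 1 peak that overlapped and 111 had none. The share was 39.7% (31 of 78) for long noncoding RNAs, 46.7% (7 of 15) for microRNAs, 47.8% (11 of 23) for other small or structural RNAs, 26.1% (12 of 46) for pseudogenes and 33.3% (5 of 15) for TEC records, with Wilson intervals that overlap between every pair of classes. Peaks over a noncoding TSS overlapped in 29 of 64 cases (45.3%, 33.7 to 57.4) and those beside one in 40 of 171 (23.4%, 17.7 to 30.3), and their median lengths were 847 and 378 bp. Of the 13 peaks of 1000 bp or more without overlap, 5 lay in the H2 stretch (2 of them at Gm10499, the others at Gm6623, Gm8835 and Gm20495), 2 at the Mycn locus and 1 at Mir129-2 and Mir129b. When the rule was applied to the peaks of NSC Bmi1Over itself, it found 172 peaks at 130 genes, of which 64 genes were also among the 177. Of these 172 peaks, 157 (91.3%, 86.1 to 94.6) overlapped an NSC peak of any length and 15 did not.

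RNA of the marked genes was scarce. Of the 177 genes, 154 had a row in the count files and 23 did not, and 98 of the 154 had no read in any of the 4 libraries. Of these 98, 26 share exon sequence with another gene (as 46 of the 154 do), and reads on shared exons were counted for neither gene. At least 1 read was counted on 56 (36.4%), and 17 had a read in every library. In the comparison set, 19382 noncoding genes over 5 kb from coding TSS and without an NSC peak, 37.1% had a read. Enough reads for the test were found for 8 marked genes (5.19%, Wilson interval 2.66 to 9.91), against 5.10% (988) of the comparison set. By class, 27 of 61 long noncoding RNAs with a peak had a read (44.3%, against 48.1%), 21 of 40 pseudogenes (52.5%, against 35.2%), 6 of 15 TEC records (40.0%, against 61.8%) and 2 of 15 microRNA genes (Mir129-2 and Gm24084; 13.3%, against 19.5%). All marked genes with a read belong to these classes, and other small or structural RNAs were not compared as a class. The libraries do not measure mature microRNAs, and the source of the reads on microRNA genes was not tested. The genes are not replicates, and these shares were not tested.

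**Figure D4:**
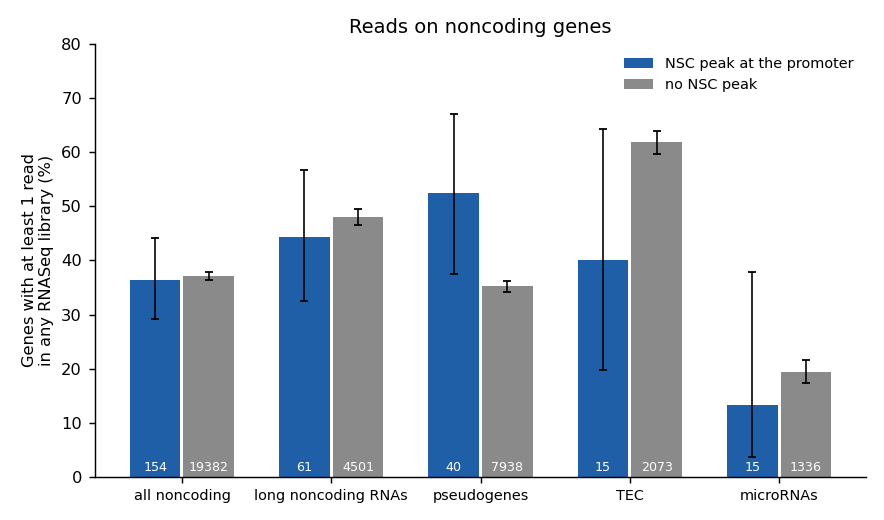
Share (%) of noncoding genes with at least 1 read in any of the 4 RNASeq libraries, for genes with one of the 235 NSC peaks at the promoter (blue) and for noncoding genes over 5 kb from coding TSS without an NSC peak (grey); the white figures give the number of genes and error bars are 95% Wilson intervals. Over all noncoding genes the shares are 36.4% and 37.1%.

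Per kb of exon, the 10 genes of highest level were Miat (a mean of 1.51 CPM per kb over the 4 libraries), Gm12396 (1.24), Gm16267 (0.945), Mir670hg (0.884), 3110039M20Rik (0.720), Gm10074 (0.605), Mir124a-1hg (0.573), Olfr1372-ps1 (0.530), Gm16105 (0.251) and Gm12115 (0.165). Neighbours in this order often did not differ beyond the spread between libraries. Miat, for example, ranged from 0.627 to 2.38 CPM per kb and Gm12396 from 0.915 to 1.76. Gm12396, Gm10074 and Gm12115 are processed pseudogenes of 306, 249 and 447 bases of exon, and reads may be shared with their parent genes. Rmst had 6 and 3 reads in NSC, against 0 and 9 in those labelled NSC Bmi1Over, and Wt1os had 2 reads in 1 library of NSC. Hand2os1, Nphs1os, Platr30, Mir375, Mir137 and Mir203 had none. Exons of Hand2os1, Nphs1os, Platr30 and Mir137 overlap those of another gene, where reads were set apart as ambiguous, so that a count of 0 does not show that no RNA was made there.

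None of the 8 testable genes was called between the libraries labelled NSC Bmi1Over and NSC (adjusted p under 0.05 by edgeR over all 15521 genes). In that fit 2.15% of all genes (334) and 0.738% of noncoding genes (16 of 2168) were called, beside which the count of 0 of 8 is to be read. The number called among all genes was between 176 (without NSC replicate 1) and 2546 (without NSC Bmi1Over replicate 1) with 1 culture left out and 3459 with the replicate number as a block, so that this background is itself uncertain. At an unadjusted p under 0.05 by edgeR there were 2 of the 8 (Mir124a-1hg and Gm16267). This limit was also met by 3760 of all 15521 genes tested and by 300 of the 2160 other noncoding genes. Among the 8, the log2 fold change was above 0 for 6 and below 0 for 2, with a median of 0.20, against -0.01 over all genes tested and 0.04 over the other noncoding genes. With 1 culture left out, the median over the same 8 genes was between 0.243 (without NSC replicate 2) and 0.727 (without NSC replicate 1), with 0.583 without NSC Bmi1Over replicate 1. The values of the 2 groups did not overlap for 3 of the 8, while this held for 59% of all genes tested. In bulk cultures, fewer cells of a type and less RNA per cell cannot be told apart.

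Mir124a-1hg, the host transcript of neuronal miR-124, had the largest difference. It had 51 and 46 reads (1.62 and 1.82 CPM) in NSC, against 40 and 302 reads (2.28 and 5.28 CPM) in those labelled NSC Bmi1Over. The groups did not overlap, and replicate 2 of the libraries labelled NSC Bmi1Over stood above the other 3. The log2 fold change was 1.21 ± 0.38 (SE), with an adjusted p of 0.109 by edgeR, and without that library it was 0.41 (adjusted p 0.652). Its call rested on the setting, since the adjusted p ran from 0.000675 to 0.652 over the alternatives. Of 7 neuronal markers, 6 were at a mean of 1 CPM or more. The 7 summed to 926 to 1012 CPM in the libraries labelled NSC Bmi1Over and 946 to 971 CPM in NSC, but most of this was Map2 (a mean of 876 CPM). Only Syt1, a protein of synaptic vesicles, was called, at 9.13 and 27.2 CPM in NSC against 66.5 and 95.8 CPM (log2 fold change 2.17, adjusted p 0.0428 by edgeR). The log2 fold change was -0.22 for Tubb3, -0.21 for Dcx, -0.07 for Map2, -0.48 for Snap25 and 0.06 for Rbfox3, none of which was called. The part of neuronal cells in the values of Mir124a-1hg was not tested.

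Gm16267, a lincRNA, had 17 and 10 reads (0.539 and 0.396 CPM) in NSC, against 18 and 46 reads (1.03 and 0.805 CPM) in those labelled NSC Bmi1Over. Both of the latter stood above both of the former, with a log2 fold change of 0.90 ± 0.38 (SE) and an adjusted p of 0.196 by edgeR. C130026L21Rik, another lincRNA, had 14 and 8 against 11 and 35 reads (0.444 and 0.316 against 0.628 and 0.612 CPM), also without overlap, and a log2 fold change of 0.68 with an adjusted p of 0.329 by edgeR. For 3110039M20Rik the groups overlapped, with 16 and 19 against 11 and 51 reads (0.507 and 0.752 against 0.628 and 0.892 CPM). Its log2 fold change was 0.36 with an adjusted p of 0.585 by edgeR.

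In the other 4 genes the groups overlapped. Miat had 564 and 257 reads (17.9 and 10.2 CPM) in NSC, against 102 and 1266 reads (5.83 and 22.2 CPM) in those labelled NSC Bmi1Over. Its lowest and its highest value both lay in the latter group, and the log2 fold change was 0.05 ± 0.49 (SE; adjusted p 0.962 by edgeR). Olfr1372-ps1 had 4.82 and 6.17 CPM against 5.08 and 4.72 CPM (log2 fold change -0.17, adjusted p 0.669 by edgeR), and Mir670hg had 2.69 and 2.29 against 2.63 and 2.17 CPM (-0.08, adjusted p 0.868 by edgeR). Gm29683, which lies at the wide peak near Nr2f2, had 22 and 3 reads against 17 and 11 (log2 fold change 0.05, adjusted p 0.977 by edgeR), so that its replicates differed more than its groups. Exons of 5 of the 8 genes overlap those of other genes, and reads were counted without regard to strand. Reads that lay on exons of more than 1 gene (3.34 to 3.64% of reads per library) were set apart as ambiguous and counted for neither gene, so that reads of these 5 may be missing from the counts.

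**Figure D5:**
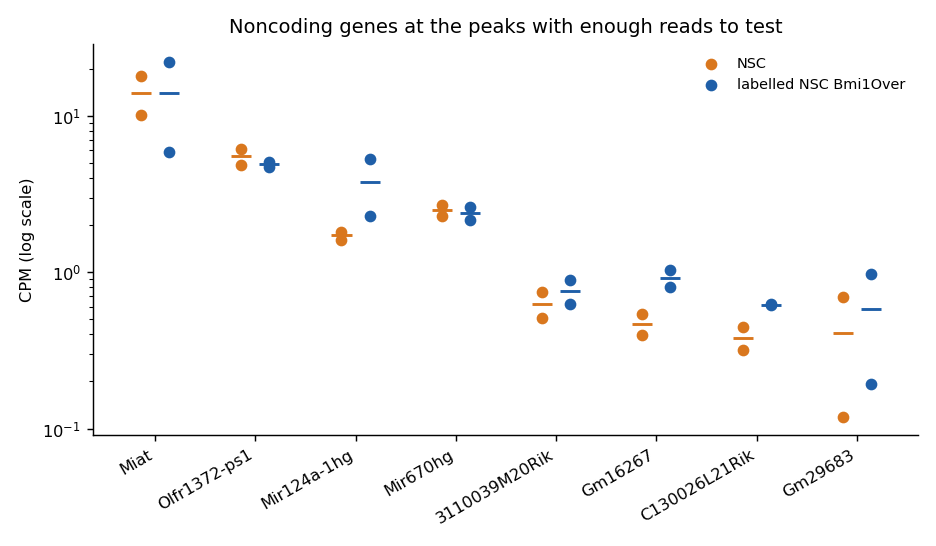
CPM (log axis) of the 8 noncoding genes at the peaks with enough reads for the test, with 1 point per culture in NSC (orange) and in the libraries labelled NSC Bmi1Over (blue) and a bar at the mean of each group. The groups are apart for Mir124a-1hg, Gm16267 and C130026L21Rik, and Miat spans 5.83 to 22.2 CPM within the libraries labelled NSC Bmi1Over.

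The genes tested were split evenly by peak overlap. The 4 with a peak that overlapped one of NSC Bmi1Over (Miat, Gm29683, Mir670hg and 3110039M20Rik) had a median log2 fold change of 0.05, and the 4 without (Mir124a-1hg, Gm16267, C130026L21Rik and Olfr1372-ps1) of 0.79, ranging from -0.17 to 1.21. With 4 genes on each side and 1 ChIPSeq library per condition, the difference between these sets was not tested.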

How the data were processed

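For ChIPSeq, the authors aligned reads to mm10 with Bowtie2 2.3.4, discarded reads mapping to several places, retained 1 library for each condition and ran MACS2 on it for broad peaks. Per peak, the deposited lists hold the fold over background (a ratio), the −log10 of the p-value and that of the q-value. A deposited score for display was left out, and the sources used here do not assign a depth to the ChIPSeq libraries that were kept. For RNASeq, the authors trimmed reads, aligned them with STAR and deposited unnormalised counts per gene. 4 summary lines that name no gene, which left between 65.9% and 72.2% of reads counted on genes, stayed out of library sizes and tests. Of 50686 identifiers, 50376 matched GENCODE M21, which uses the build of the files. The 2 strand columns had nearly equal totals, so unstranded counts were used.

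The rule was applied to every annotated transcript start, and peaks were compared with short autosomal NSC peaks at coding promoters (within 1 kb of a coding TSS) and away from promoters (over 5 kb from coding and over 1 kb from noncoding TSS). CG and repeat content were read from the GRCm38.p6 reference, and the sequence at Mir6236 is not reported here. Counts were fitted with edgeR 4.0.16 in R 4.3.3 (filterByExpr, TMM with factors from 0.932 to 1.08, quasi-likelihood test without a replicate term, Benjamini-Hochberg adjustment over 15521 genes; biological coefficient of variation 12.9%), after the steps had been tested on simulated data. Peaks were handled in Python 3.11.15 and intervals are 95% Wilson intervals. With 2 cultures per group an exact permutation test cannot give a two-sided p under 0.333.

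The regions, gene lists and marker lists were chosen with earlier results of these data known. Peaks were named when among the 10 of highest fold or the 5 widest or at a limit of the rule, and genes when on a list of known noncoding genes, when carrying a name rather than a clone or Gm number (the 30 of highest fold), when among the 10 of highest CPM per kb or when among the 5 with the largest absolute log2 fold change. The other tested genes are named because only 8 could be tested, and the unnamed-clone genes of clusters after their values were seen. Alternatives were other window, distance, length, fold and q limits, other scalings and filters, DESeq2 1.42.0, the replicate block and leaving out each culture.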

Additional observations from a re-analysis of the deposited data

How the results depend on the processing

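In place of 235 peaks, the rule found 153 with a window of 500 bp, 387 with 2 kb, 131 with a −log10 q of at least 3 and 35 with a fold of at least 5; other coding limits, gene starts and biotypes gave between 160 and 322. The share that overlapped NSC Bmi1Over (29.4%) was 9.36% when 50% of a peak had to be covered, 42.9% at a fold of at least 5 in both lists and 50% for peaks of at least 500 bp. The share with a long domain nearby (23.0%) was 17.9% within 5 kb, 36.6% within 50 kb and 39.1% with domains from 2 kb. Calls among all genes (334) were 537 with library size alone, 2356 with any gene with a read, 1496 with DESeq2 and between 176 and 2546 when 1 culture was left out (176 without NSC replicate 1, 1461 without NSC replicate 2, 2546 without NSC Bmi1Over replicate 1). Those among the marked genes in the fit (0 of 8) were 1 with any gene with a read and 0 or 1 with 1 culture left out (1 without NSC replicate 2 or NSC Bmi1Over replicate 1), each time Mir124a-1hg. Its log2 fold change stayed between 0.41 and 1.62. That of Olfr1372-ps1 lay between -0.338 and 0.016 with 1 culture left out, being above 0 without NSC replicate 2. The median over the marked genes in the fit (0.20 over 8 genes) lay between -0.087 and 0.727 with 1 culture left out, where 8 or 10 genes entered (0.243 to 0.727 over the same 8), was 0.07 over the 56 genes with any read (0.207 over the same 8) and lay between 0.05 and 0.40 otherwise. The share of marked genes that could be tested (5.19%) was 2.60% at a mean of at least 1 CPM. With the replicate block, 3459 genes and 1 of the 8 (Mir124a-1hg, log2 fold change 1.08, adjusted p 0.0164 by edgeR) were called; the 2 pairs of equal number correlated at 0.169, and nothing in the labels pairs them, so the block was not used. The cause of these changes was not tested. A peak missing from a list, and a gene without reads, are limited by depth, and for ChIPSeq the sources used here do not say which replicate, and so which depth, lies behind each peak list.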

Other observations

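Peaks outside the rule carried the same mark at better known noncoding genes. On the autosomes, 23 NSC peaks of 4000 bp or more overlapped a noncoding promoter window while meeting the other limits. Of the listed noncoding RNAs of the Hox clusters, several lay in long domains, with Hotair in one of 142094 bp (fold 9.46), Hotairm1 and Hoxaas3 in one of 73488 bp (10.4) and Hottip in one of 18733 bp (9.37). Dlx6os1, at the interneuron regulators Dlx5 and Dlx6, lay in a domain of 36247 bp (fold 8.53), and Six3os1 in one of 15422 bp (6.91). The microRNA genes Mir183 and Mir96, known from sensory organs, shared a domain of 9606 bp (9.05), and Mir124a-3, another copy of the neuronal microRNA gene, had a peak of 4422 bp (5.66).

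On the X chromosome, 68 of 3454 NSC peaks met the rest of the rule. In NSC Bmi1Over, 4 genes met the rule with no NSC peak within 1 kb of a start: Gm12756 (201 bp, fold 5.46), Gm27952 (200 bp, 5.15), 1700065J18Rik (260 bp, 5.13) and H2-Pb (200 bp, 4.61). All 4 of these peaks were 260 bp or shorter.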
